A study of Mus musculus with 4 samples.

Results

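The genes described here encode the core enzymes that make ceramide and break it down: Sptlc1, Sptlc2, Cers1, Cers2, Cers4, Cers5, Cers6, Degs1, Asah1 and Smpd1. They were taken by symbol, and all 10 were found among the 55387 rows of the expression tables, each on a single row. RNA sequencing was performed on brown adipose tissue (BAT) of 4 male mice with a C57BL/6 background, aged 15 weeks, with 1 library per mouse. In 2 Sox4f/f mice, which the sample labels call WT, both Sox4 alleles carry loxP sites and no Cre was present. In 2 littermates, Sox4-MKO, the same floxed alleles were combined with Myf5-Cre, which acts in the lineage that gives rise to both brown adipocytes and skeletal muscle. No treatment was recorded in either genotype. The labels name the cell type as brown adipocytes, but whole tissue was taken, and the comparison asks how loss of SOX4 changes gene expression in BAT.

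Ceramide is the central sphingolipid, a fatty acid joined to a sphingoid base. It is built at the endoplasmic reticulum from serine and a fatty acyl-CoA, or released from sphingomyelin in lysosomes and at membranes, and it is cleared by ceramidases or passed on to sphingomyelin and glycosphingolipids. The ceramide synthases differ in the length of the acyl chain they attach, so the balance among them sets which ceramides a tissue makes. In adipose tissue ceramides are known for their effect on insulin action and on mitochondrial function.

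Values are in FPKM, the number of fragments scaled by transcript length and by library size, which is a level per length, so that levels of different genes can be compared. The lowest values of single-transcript genes gave an estimated 12200000 to 16900000 fragments per library, which is rough because the effective lengths used by the authors are unknown. Sox4 itself was at 1.98 and 1.06 FPKM in the 2 Sox4f/f mice and at 0.98 and 3.06 FPKM under the Sox4-MKO label, with a log2 fold change of 0.20 (limma adjusted p = 0.843). The highest and the lowest value both came from mice labelled Sox4-MKO, so Sox4 itself gave no check of the labels, which all directions below follow. Other genes did separate the labelled genotypes. The 7 brown adipocyte markers summed to 7100 and 6915 FPKM in the Sox4f/f pair and to 3419 and 4170 FPKM in the other pair, with 5 of 7 lower without overlap, among them Ucp1 at 1935 and 1814 against 733 and 1105 FPKM. The 3 white adipocyte markers (Lep, Retn and Agt) summed to 153 and 133 FPKM against 479 and 561 FPKM, and 3 of 3 were higher without overlap. The 9 skeletal muscle markers summed to 185 and 682 FPKM in Sox4f/f, but to 13393 FPKM in the library labelled Sox4-MKO mouse 1 and 2276 FPKM in mouse 2. The 8 macrophage markers summed to 213 and 316 FPKM against 442 and 434 FPKM, and 4 fibroblast and progenitor markers to 188 and 232 FPKM against 442 and 401 FPKM. The 4 Schwann cell and nerve markers summed to 40.4 and 18.6 FPKM against 63.6 and 46.4 FPKM. Within these lists the 2 genotypes did not overlap at 8 of 9 muscle, 8 of 8 macrophage, 4 of 4 fibroblast and 3 of 4 Schwann cell markers. All of these were higher in Sox4-MKO, and no marker of these lists was listed at 0. Of all genes tested, 21.7% were higher and 29.6% lower without overlap. The 4 general adipocyte markers (Adipoq, Fabp4, Plin1 and Pparg) summed to 7712 and 8161 FPKM against 6962 and 9504 FPKM, with 2 lower without overlap. Summed endothelial, lymphocyte and blood markers overlapped between the genotypes, at 0.83, 1.21 and 1.24 times the Sox4f/f mean. Of these, only Kdr was lower without overlap. The lymphocyte sum lay between 2.35 and 5.98 FPKM over the 4 libraries. Only 2 of its 5 markers were among the genes tested, and 1 was listed at 0 in a library. So low a sum cannot show whether lymphocyte RNA moved with genotype. Some immunoglobulin genes outside the list were higher in Sox4-MKO without overlap, and such genes were not examined as a set. Markers of several other cell types thus moved with genotype, and their part in the results below was not tested. In whole tissue fewer cells of a type and less RNA per cell cannot be told apart.

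Cers2, the synthase for very-long-chain ceramides, was the most abundant of the 10 genes and was lower in the libraries labelled Sox4-MKO. Cers6, which makes ceramides with the shorter palmitoyl chain, was at a low level and was higher, as were Degs1 and Asah1. At an unadjusted p under 0.05 by limma on log2(FPKM + 1), 1 of the 10 genes was lower, against 8.28% of all 12877 genes tested, and 3 were higher, against 7.95%. No gene of any kind passed after Benjamini-Hochberg adjustment (0% of genes tested), and the adjusted p of the 10 genes was between 0.214 and 0.761. The 2 genotypes did not overlap at 3 genes that were lower (29.6% of all genes tested) and at 5 that were higher (21.7%), 8 genes in all (51.3%). The median log2 fold change of the 10 genes was 0.28, beside -0.05 for all genes tested. Without Sox4-MKO mouse 1, the library with the high muscle markers and that in which Cers1 passed the limit, the median of the 9 genes left was 0.098, beside -0.09 for all genes, and without Sox4-MKO mouse 2 that of the 10 genes was 0.38. Genes entered the test if their averaged FPKM was above 1 in at least one genotype. Cers1 and Cers6 passed only through the Sox4-MKO mean, so that they could scarcely have been lower. Of the other 8 genes, 1 was lower and 2 were higher at an unadjusted p under 0.05, and their median was 0.14.

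**Figure D1:**
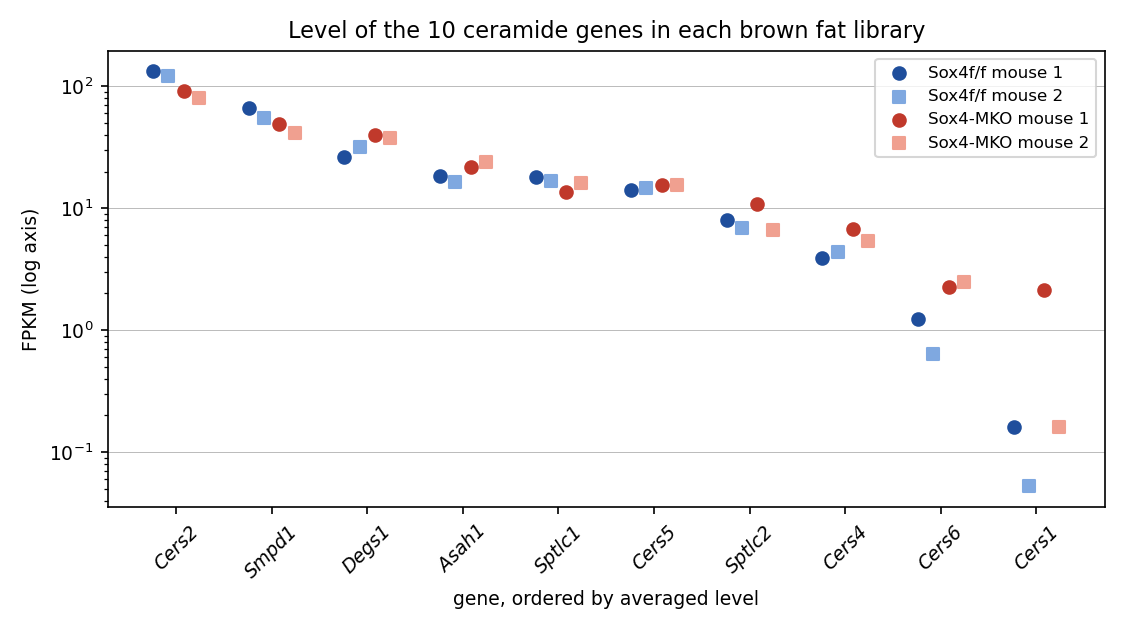
FPKM (log axis) of each gene in each of the 4 libraries, 1 point per mouse, with genes ordered by their averaged level. Cers2 lies between 80.1 and 132 FPKM and Cers1 between 0.052 and 2.13 FPKM, and the Sox4f/f points (blue) stand above the Sox4-MKO points (red) for Cers2, Smpd1 and Sptlc1.

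Over all 4 libraries the levels ran from Cers2 at 107 FPKM through Smpd1 at 53.1, Degs1 at 33.9, Asah1 at 20.2, Sptlc1 at 16.2, Cers5 at 14.9, Sptlc2 at 8.03, Cers4 at 5.10 and Cers6 at 1.65 to Cers1 at 0.62 FPKM. Each of Cers2, Smpd1 and Degs1 was apart from the next gene in every library. Asah1, Sptlc1 and Cers5 followed each other with overlapping ranges, and so did Sptlc2 and Cers4, and Cers6 and Cers1.

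Sptlc1 and Sptlc2 encode the subunits of serine palmitoyltransferase, the enzyme that starts the pathway, with SPTLC2 carrying the catalytic site. Sptlc1 (chromosome 13, 53332748 to 53377397, minus strand, GRCm38) had 18.1 and 16.9 FPKM in the Sox4f/f pair and 13.7 and 16.2 FPKM in the mice labelled Sox4-MKO. The genotypes did not overlap, but the nearest mice differed by less than the spread within Sox4-MKO. Its log2 fold change was -0.21 with a 95% interval from -0.60 to 0.17 (adjusted p = 0.504 by limma). Sptlc2 (chromosome 12, 87305058 to 87388355, minus strand) had 7.96 and 6.84 FPKM against 10.7 and 6.59 FPKM, so that Sox4-MKO mouse 1 was highest and mouse 2 lowest of the 4. Its log2 fold change of 0.17 (95% interval -0.51 to 0.85) turned to -0.14 without the library labelled Sox4-MKO mouse 1. The ratio of Sptlc1 to Sptlc2 was 2.27, 2.47 and 2.46 in Sox4f/f mice 1 and 2 and Sox4-MKO mouse 2, and 1.28 in Sox4-MKO mouse 1, the library with the high muscle markers.

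The ceramide synthases add the fatty acyl chain to the sphingoid base. Cers2 (chromosome 3, 95314791 to 95323599, plus strand) had 132 and 122 FPKM in the Sox4f/f pair and 91.7 and 80.1 FPKM in the mice labelled Sox4-MKO. Both Sox4f/f mice were above both other mice, with a gap wider than the spread within either genotype. The mean was 127 ± 7.49 FPKM against 85.9 ± 8.19 FPKM (SD, n = 2 mice each). The level in Sox4-MKO was 0.676 of that in Sox4f/f, or -0.56 on the log2 scale (SE, the standard error of the limma fit, 0.13, limma adjusted p = 0.214). Its unadjusted p was 0.0087, and 0.067 without Sox4f/f mouse 1, where the log2 fold change was -0.50. Summed markers of brown adipocytes were lower in the same libraries, as given above, and none of them was listed at 0. The summed general adipocyte markers overlapped between the genotypes, and a link of either list with Cers2 was not tested.
Cers6 (chromosome 2, 68861441 to 69114282, plus strand) had 1.23 and 0.64 FPKM in the Sox4f/f pair and 2.27 and 2.47 FPKM in the mice labelled Sox4-MKO. Both Sox4-MKO mice were above both Sox4f/f mice, but as a ratio the 2 Sox4f/f mice differed from each other by slightly more than the higher of them did from the nearest Sox4-MKO mouse. The mean was 0.93 ± 0.42 FPKM against 2.37 ± 0.14 FPKM (SD, n = 2 mice each), 2.54-fold higher. On the log2(FPKM + 1) scale, which understates low genes, the difference was 0.82 (SE 0.25, limma adjusted p = 0.254), and 1.41 with a pseudocount of 0.01. The call at an unadjusted p under 0.05 was lost without Sox4f/f mouse 2 (0.60), Sox4-MKO mouse 1 (0.86) or Sox4-MKO mouse 2 (0.77), and after quantile normalization (0.64). Without moderation the call was lost as well. Depending on which annotated coding transcript the fragments came from, the lowest value rests on an estimated 10 to 55 fragments and the highest on 54 to 294.
Cers5, which like Cers6 prefers the palmitoyl chain, lies on chromosome 15 (99734881 to 99772885, minus strand) and varied little. Its level was 14.0 and 14.7 FPKM in the Sox4f/f pair versus 15.5 and 15.4 FPKM in the other pair, at a log2 fold change of 0.10 (95% interval -0.23 to 0.43). Cers4, which makes ceramides with longer saturated chains, lies on chromosome 8 (4493026 to 4531680, plus strand). Cers4 measured 3.91 and 4.41 FPKM against 6.70 and 5.36 FPKM, and both Sox4-MKO mice were above both Sox4f/f mice. Its log2 fold change of 0.44 (95% interval -0.04 to 0.93, adjusted p = 0.333 by limma) did not pass an unadjusted p under 0.05, except after rescaling without the mitochondrially encoded genes and Ucp1 (0.50). On the opposite strand, exons of Cers2 share 144 bases with 6330562C20Rik and 75 with Setdb1, and those of Cers4 share 214 with Gm36956 and 886 with Vmn2r-ps89. Whether strand was used in counting is not given, so reads from these stretches may be uncertain.

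**Figure D2:**
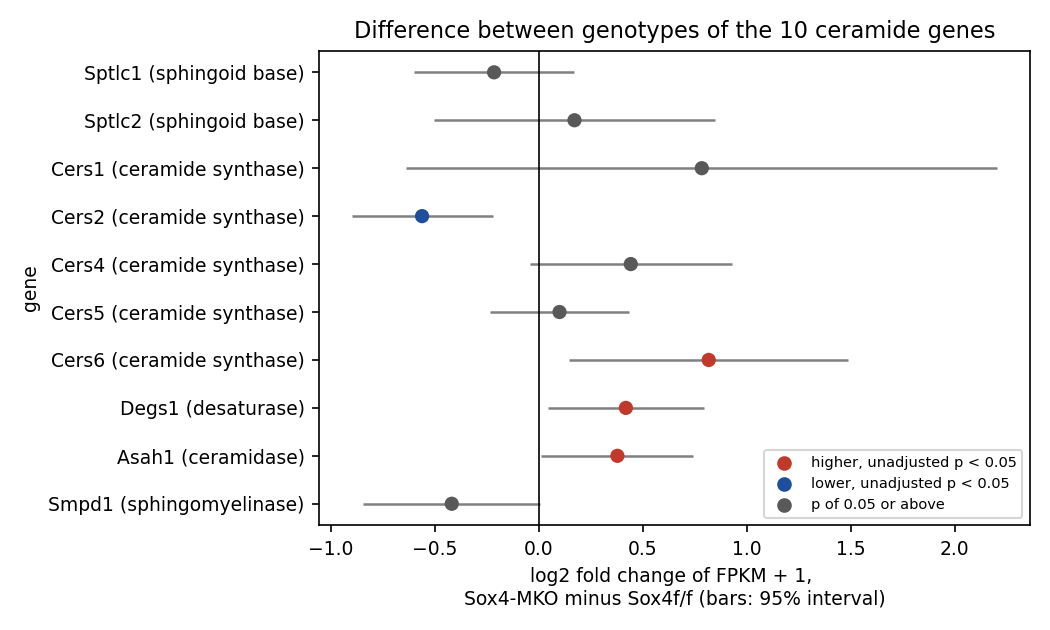
Log2 fold change of FPKM + 1, Sox4-MKO minus Sox4f/f, for each gene with its 95% interval from limma (horizontal bars). Cers2 (blue) is lower, Cers6, Degs1 and Asah1 (red) are higher at an unadjusted p under 0.05, and Cers1 has the widest interval, from -0.64 to 2.21.

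The make-up of the ceramide synthase transcripts does not depend on the scaling of a library. Cers2 accounted for 87.3% and 86.0% of the summed FPKM of the 5 synthase genes in Sox4f/f and for 77.5% and 77.4% in the libraries labelled Sox4-MKO. The difference of -9.18 percentage points was larger than the spread between mice, and was between -9.82 and -8.54 with each library left out in turn. The share of Cers5 was 9.23% and 10.4% against 13.1% and 14.9%, that of Cers4 2.57% and 3.11% against 5.67% and 5.18%, and that of Cers6 0.809% and 0.451% against 1.92% and 2.38%. Each of these 3 shares was higher in both Sox4-MKO mice than in either Sox4f/f mouse. The Cers5 level itself was only 1.08-fold higher, while the sum of the 5 genes was lower. The sum of the 5 genes was 152 and 142 FPKM in Sox4f/f and 118 and 104 FPKM in the other libraries. The ratio of Cers2 to Cers6 was 108 and 191 in Sox4f/f against 40.5 and 32.5, and that of Cers2 to Cers4 was 33.9 and 27.6 against 13.7 and 14.9. These shares and ratios are descriptions of values already given and were not tested.

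**Figure D3:**
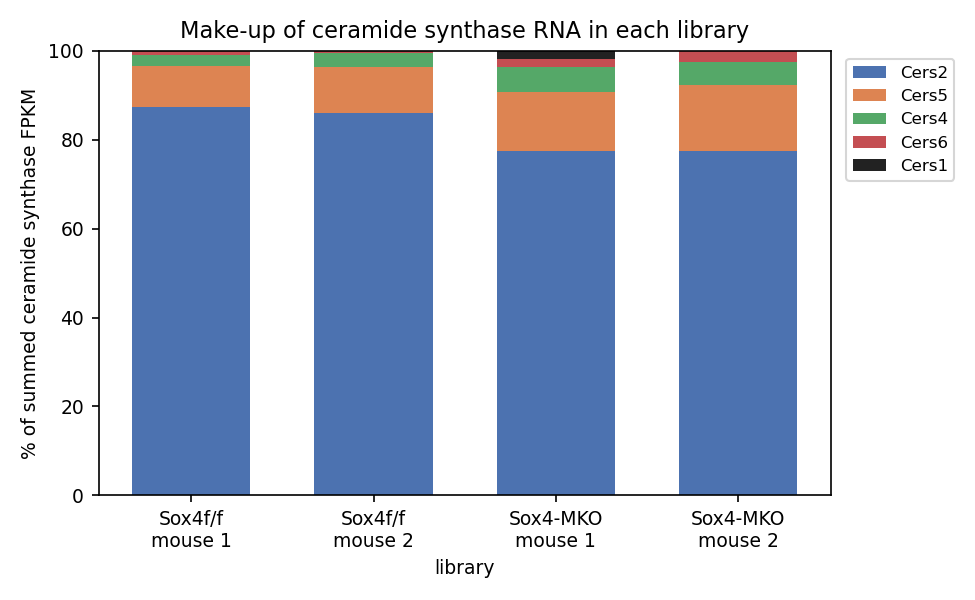
Share of each ceramide synthase gene in the summed FPKM of the 5 genes (vertical axis, percent), with 1 stacked bar per library. Cers2 takes 87.3% and 86.0% in the Sox4f/f libraries and 77.5% and 77.4% in the Sox4-MKO libraries, and Cers1 is visible only in Sox4-MKO mouse 1.

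Cers1 makes stearoyl ceramides and is known as the main synthase of skeletal muscle and neurons. It lies on chromosome 8 (70315775 to 70331592, plus strand), and its exons hold all 1349 exonic bases of Gdf1 on the same strand, so that the division of fragments between the 2 genes is uncertain. Cers1 was at 0.16 and 0.052 FPKM in Sox4f/f, at 2.13 FPKM in Sox4-MKO mouse 1 and at 0.16 FPKM in Sox4-MKO mouse 2. These values rest on an estimated 6, 2, 76 and 7 fragments. A single library was high, and the other Sox4-MKO mouse was within the range of Sox4f/f. The log2 fold change of 0.78 (SE 0.54, limma adjusted p = 0.506) rests on that library, and without it Cers1 fell under the FPKM limit and was not tested. Without Sox4-MKO mouse 2, when that one library alone stands for the genotype, it was 1.499. Gdf1 was listed at 0 in mouse 1 of both genotypes, at 0.023 FPKM in the second Sox4f/f mouse and at 0.35 FPKM in the second Sox4-MKO mouse. The library with high Cers1 was also the one in which the muscle actin Acta1 reached 4512 FPKM, compared with 59.9 and 226 FPKM in Sox4f/f and 898 FPKM in Sox4-MKO mouse 2. In the latter the muscle markers summed to 2276 FPKM and Cers1 was at 0.16 FPKM. Sox4f/f mouse 1 had the same Cers1 level, with muscle markers at 185 FPKM. These Cers1 values rest on an estimated 7 and 6 fragments, too few to compare the mice, and a link with muscle content was not tested.

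**Figure D4:**
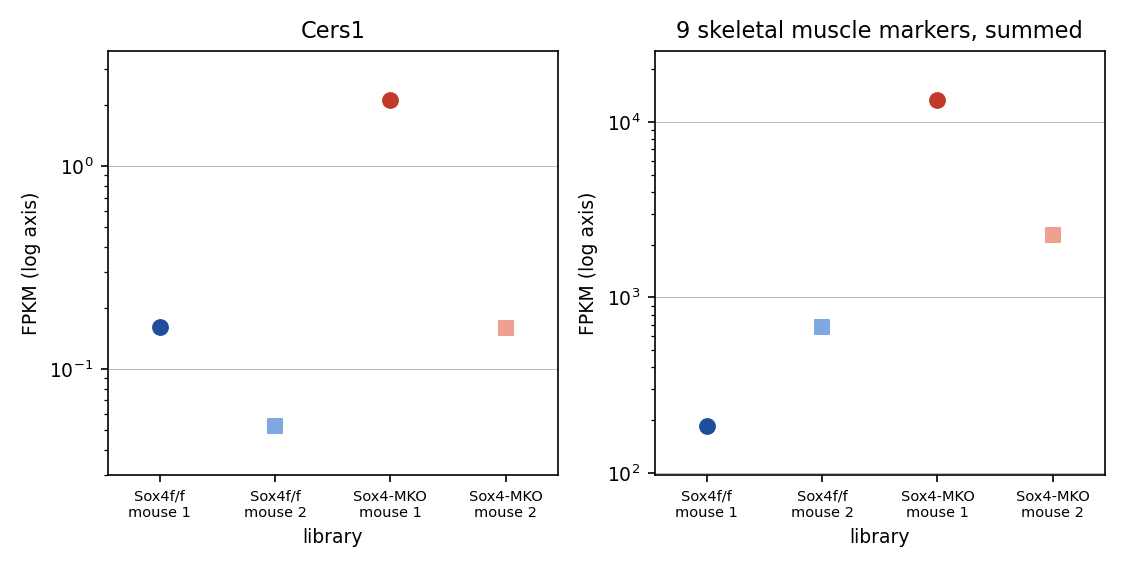
FPKM (log axes) of Cers1 (left) and of the 9 skeletal muscle markers summed (right) in each library. Both are highest in Sox4-MKO mouse 1, at 2.13 and 13393 FPKM. In Sox4-MKO mouse 2 the muscle markers are above both Sox4f/f mice, and Cers1 rests on an estimated 7 fragments.

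Degs1 encodes the desaturase that turns dihydroceramide into ceramide, the last step of synthesis. It lies on chromosome 1 (182275772 to 182282804, minus strand) and had 26.3 and 31.6 FPKM in the Sox4f/f pair versus 39.7 and 38.0 FPKM in the other pair. Both Sox4-MKO mice were above both Sox4f/f mice, by more than the 2 Sox4f/f mice differed from each other. The mean was 28.9 ± 3.73 FPKM against 38.9 ± 1.21 FPKM (SD, n = 2 mice each), 1.34-fold higher. The log2 fold change was 0.42 (SE 0.14, limma adjusted p = 0.273). It was no longer called at an unadjusted p under 0.05 without Sox4f/f mouse 1 (0.29), Sox4-MKO mouse 1 (0.39) or Sox4-MKO mouse 2 (0.45), or with mouse number as a block (unadjusted p = 0.055). The call was lost as well with an untrended prior and without moderation. Degs1 was 1.46 and 1.87 times the level of Sptlc1 in Sox4f/f, and 2.90 and 2.35 times in the libraries labelled Sox4-MKO.

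Asah1 encodes acid ceramidase, which cleaves ceramide in the lysosome, and Smpd1 encodes acid sphingomyelinase, which releases ceramide from sphingomyelin in the same organelle. Asah1 (chromosome 8, 41340197 to 41374773, minus strand) had 18.6 and 16.4 FPKM in the Sox4f/f pair versus 21.9 and 24.0 FPKM in the other pair, without overlap. Its mean was 17.5 ± 1.55 FPKM against 23.0 ± 1.51 FPKM (SD, n = 2 mice each), a log2 fold change of 0.38 (SE 0.14, limma adjusted p = 0.297). The call at an unadjusted p under 0.05 was lost whichever library was left out, at 0.46 and 0.29 without Sox4f/f mice 1 and 2 and at 0.44 and 0.31 without Sox4-MKO mice 1 and 2. It was also lost after scaling to a common median (0.36) and with mouse number as a block (unadjusted p = 0.074 by limma). The same held with an untrended prior and without moderation. Macrophage markers were higher in the same libraries, as given above, and a link with Asah1 was not tested.
Smpd1 (chromosome 7, 105554360 to 105558389, plus strand) had 67.0 and 54.9 FPKM in the Sox4f/f pair versus 48.9 and 41.6 FPKM in the other pair. Both Sox4f/f mice were higher, but the 2 differed from each other by more than the lower of them did from the nearest Sox4-MKO mouse. Its log2 fold change of -0.42 (95% interval -0.84 to 0.01, adjusted p = 0.313 by limma) narrowly missed an unadjusted p of 0.05. It passed with mouse number as a block (unadjusted p = 0.032), after scaling to a common median (-0.44), and with a limit of 0.1 FPKM or no limit. It was -0.28 without Sox4f/f mouse 1 and -0.30 without Sox4-MKO mouse 2, with unadjusted p of 0.246 and 0.177 by limma. The 2 lysosomal genes thus lay in opposite directions, and the ratio of Asah1 to Smpd1 was 0.277 and 0.298 in Sox4f/f against 0.448 and 0.577.

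The promoters of the 3 genes of synthesis that passed an unadjusted p under 0.05, Cers2, Cers6 and Degs1, are shown because they share a short motif although Cers2 and the other two lay in opposite directions. The 250 bases before each start are given 5′ to 3′ from RefSeq (GRCm38.p6), at chr3:95314940-95315189 on the plus strand for the upstream start of Cers2, chr2:68861191-68861440 on the plus strand for Cers6 and chr1:182282196-182282445 on the minus strand for Degs1. Capitals mark CACGTG, the core of an E-box, which reads the same on both strands.
Cers2: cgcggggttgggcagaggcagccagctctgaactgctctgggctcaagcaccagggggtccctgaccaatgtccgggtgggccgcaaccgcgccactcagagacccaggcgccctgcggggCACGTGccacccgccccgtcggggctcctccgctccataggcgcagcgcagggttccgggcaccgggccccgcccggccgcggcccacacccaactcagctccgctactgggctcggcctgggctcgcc
Cers6: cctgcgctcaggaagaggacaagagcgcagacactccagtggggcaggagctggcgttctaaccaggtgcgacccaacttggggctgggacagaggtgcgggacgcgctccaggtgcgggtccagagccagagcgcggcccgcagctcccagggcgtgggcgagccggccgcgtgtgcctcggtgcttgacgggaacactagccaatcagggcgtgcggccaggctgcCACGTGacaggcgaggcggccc
Degs1: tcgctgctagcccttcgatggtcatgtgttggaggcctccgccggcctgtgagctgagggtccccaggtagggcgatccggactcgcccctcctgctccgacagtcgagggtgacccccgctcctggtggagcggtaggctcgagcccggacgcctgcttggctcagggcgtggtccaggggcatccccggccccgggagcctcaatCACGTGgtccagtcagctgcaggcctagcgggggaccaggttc
The motif begins at position -129 of Cers2, -22 of Cers6 and -43 of Degs1, counted from the RefSeq start. The gene positions given above are from GENCODE and begin further upstream for Cers2 (95314791) and Degs1 (182282804, minus strand). By GENCODE the windows of Cers2 and Degs1 shown here therefore lie inside the genes. Asah1, which also passed an unadjusted p under 0.05 by limma, had no window and was not searched. The motif occurred in 3 of 10 windows of the other 9 genes, and in 6.02% of all 32851 windows of this length. It was chosen after the sequences had been read, so its share among these genes is a description only. The SOX4 sites named in the study, AACAAAG and AACAAGT, were searched on both strands and were found in 0 of the 10 windows, beside 5.03% and 2.54% of all windows. This says only that these letters are not in the windows searched. The window of Cers1 is the same as the first window of Gdf1.

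Beyond the 10 genes, a list of 39 other sphingolipid genes was examined, of which 29 entered the test. At an unadjusted p under 0.05 by limma, 2 were lower (Ormdl3 and Psap) and 3 were higher (Smpd3, B4galt6 and Sgpp1), beside 8.28% and 7.95% of all genes tested, and 24 did not pass. None had an adjusted p under 0.05. The median log2 fold change was -0.03, with 13 genes above 0. Of the 29, 26 had an averaged FPKM above 1 in both genotypes, and among these 2 were lower and 1 was higher.
Ormdl3, an ORMDL protein that holds back serine palmitoyltransferase, had 235 and 208 FPKM in the Sox4f/f pair versus 148 and 143 FPKM in the other pair, a level above that of every one of the 10 genes. On the log2 scale it differed by -0.60 (SE 0.12, limma adjusted p = 0.207), and it was called in all 15 alternatives. The related Ormdl1 and Ormdl2 did not pass, at -0.20 and 0.27. Sptssa, a small subunit of serine palmitoyltransferase, had 46.6 and 52.1 FPKM versus 46.6 and 49.9 FPKM, with a log2 fold change of -0.03 with a 95% interval from -0.36 to 0.30.
Smpd3, a neutral sphingomyelinase, had 0.73 and 0.84 FPKM in the Sox4f/f pair versus 3.16 and 3.25 FPKM in the other pair, 4.07-fold higher, with a log2 fold change of 1.23 (SE 0.20, limma adjusted p = 0.196). Of the other sphingomyelinases, Smpd1, Smpd2 and Smpd4 were at -0.42, -0.07 and -0.35 and were not called. Smpd3 entered the test only through its Sox4-MKO mean, as did B4galt6.
Psap, the precursor of the saposins that help lysosomal enzymes reach sphingolipids, had 710 and 767 FPKM versus 533 and 605 FPKM, with a log2 fold change of -0.38 that was called in 5 of 15 alternatives. It was lost without Sox4f/f mouse 1 (-0.43), Sox4f/f mouse 2 (-0.32) or Sox4-MKO mouse 1 (-0.28). B4galt6, which makes lactosylceramide, had 0.69 and 0.84 FPKM versus 2.24 and 2.05 FPKM, with a log2 fold change of 0.83, and was not called without Sox4f/f mouse 1 (0.77).
Sgpp1, which removes the phosphate from sphingosine 1-phosphate, had 3.90 and 3.75 FPKM against 7.24 and 6.82 FPKM. The log2 fold change of Sgpp1 was 0.73 (SE 0.15, limma adjusted p = 0.210), and it too was called in all 15 alternatives. Sgpl1, the lyase that ends the pathway by splitting sphingosine 1-phosphate, had 65.9 and 51.0 FPKM against 33.2 and 48.3 FPKM, and Sox4-MKO mouse 1 was well under the other 3. The log2 fold change of -0.52 was not called and depended on single libraries. It was -0.79 without Sox4-MKO mouse 2, where limma gave an unadjusted p of 0.027. Leaving out Sox4-MKO mouse 1 gave -0.26 and leaving out Sox4f/f mouse 1 gave -0.34, and neither was called.

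**Figure D5:**
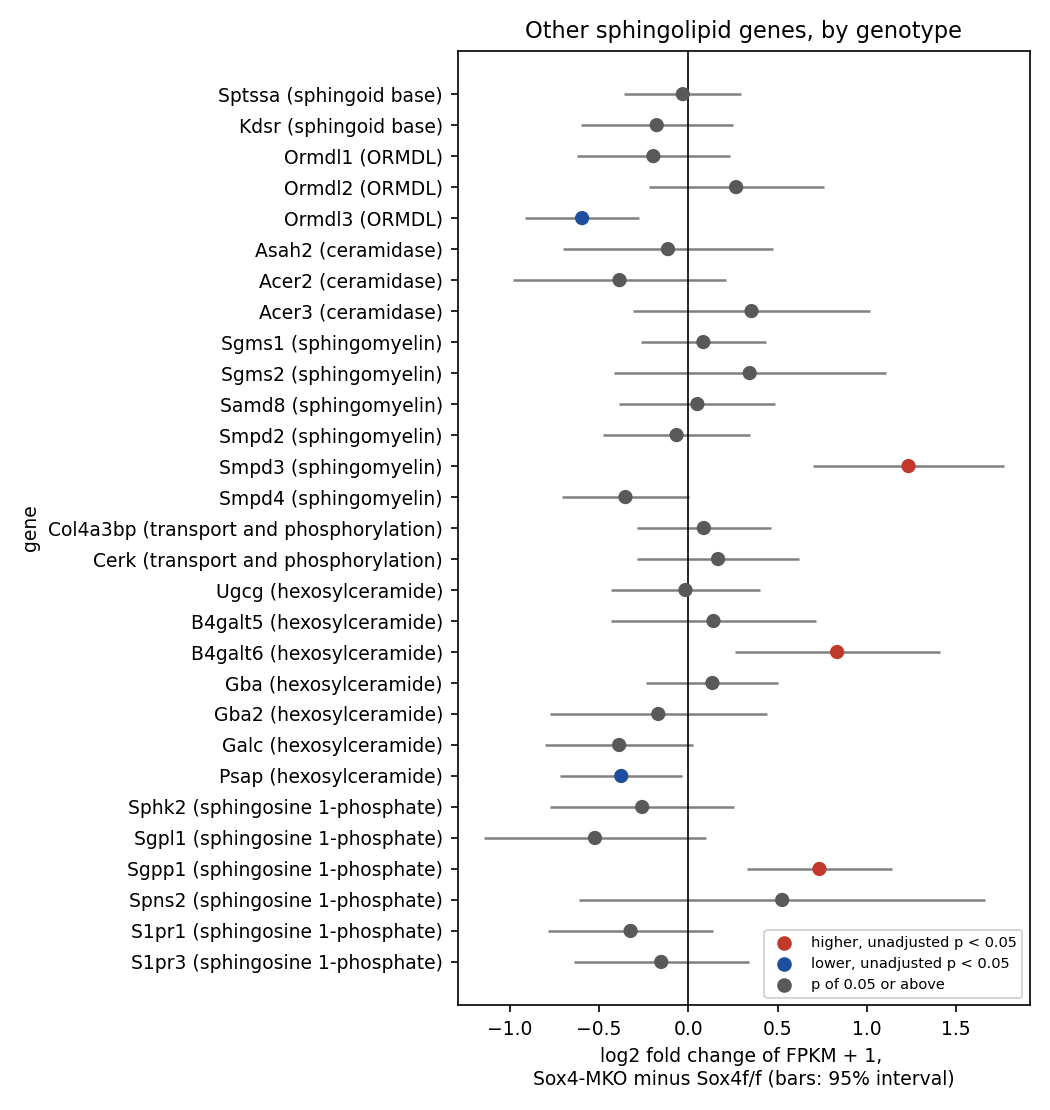
Log2 fold change of FPKM + 1, Sox4-MKO minus Sox4f/f, for the 29 other sphingolipid genes tested, with 95% intervals from limma. Smpd3, B4galt6 and Sgpp1 (red) are higher, Ormdl3 and Psap (blue) lower at an unadjusted p under 0.05, and the other 24 have intervals that include 0.

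The genes whose values over the 4 libraries, centred on their own mean on the log2(FPKM + 1) scale, lay closest to those of Cers2 were Dagla, Fbxl6 and Hotairm1, with root mean square differences of 0.0097, 0.015 and 0.016. Those closest to Cers6 were Ifi207, Mc2r and Efcab2, at 0.048, 0.054 and 0.062. With 4 libraries and 12877 genes such closeness is a description only.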

How the data were processed

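RNA was sequenced from BAT of 2 mice per genotype. The methods describe TRIzol extraction and a TruSeq library, whereas the labels name a column kit and stranded mRNA. FPKM values were deposited by the authors, 1 per gene and library. The submitters' processing notes list Cufflinks 2.1.1, Cuffdiff and the build mm10. The aligner, the annotation and the strand setting are not given in the sources used here. Genotypes and mouse numbers came from the sample labels. That the libraries come from separate mice follows from the methods.

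After genes whose mean FPKM was 1 or less in both genotypes had been left out, limma 3.58.1 in R 4.3.3 was run on log2(FPKM + 1) with a trended prior, a single genotype term and two-sided p-values, adjusted by Benjamini-Hochberg over all 12877 genes. An exact permutation test of 2 against 2 cannot go below p = 0.333. The code was tested on simulated data. Positions are from GENCODE M21 (GRCm38, the assembly of mm10), matched by symbol, and promoters from RefSeq. Protein sequences were not used here. Genes named were the 10 genes, Sox4, Gdf1, sphingolipid genes with an unadjusted p under 0.05 and the 2 others of highest level, the 3 genes closest to Cers2 and Cers6, and marker genes. Ormdl1, Ormdl2, Smpd2 and Smpd4 were added after their values were seen. The members and lists were chosen with earlier results of these data known. Depth limits the low genes, and estimated fragments cover counting error only. Figures were drawn with matplotlib 3.10.9.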

Additional observations from a re-analysis of the deposited data

How the results depend on the processing

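No gene of the 10, and none of the other sphingolipid genes, had an adjusted p under 0.05 by limma in the analysis reported or in any alternative. Over the alternatives that kept all 4 libraries, the smallest adjusted p of the 10 genes was between 0.177 and 0.418. Of the 10 genes, those lower at an unadjusted p under 0.05 numbered 1, or 2 with mouse number as a block, after scaling to a common median, with a limit of 0.1 FPKM and with no limit, and 0 when a fold change of at least 1.5 was also required. Those higher numbered 3, or 1 with the block, 1 with an untrended prior, 1 with the fold change of at least 1.5 and 0 without moderation, 2 after scaling to a common median, after quantile normalization and with a limit of 5 FPKM, and 4 after rescaling without mitochondrially encoded genes and Ucp1. With each library left out in turn, 0 to 1 were lower and 0 to 1 higher. With all 4 libraries kept, 2 of the other sphingolipid genes were lower. The number was 1 with the block, after quantile normalization, after the rescaling, with an untrended prior and with the fold change. It was 3 with a limit of 0.1 or 5 FPKM, with no limit and without moderation. The higher ones numbered 3 with all 4 libraries kept, or 1 with a limit of 5 FPKM, which leaves out low genes. Both numbers also changed when a library was left out. A fit without one library has a single mouse in that genotype, which is assumed to vary like the other genotype. Among all genes tested, 16.2% had an unadjusted p under 0.05 in either direction in the analysis reported. The share was 14.8% with the block, 17.7% after scaling to a common median, 16.2% after quantile normalization and 16.1% after the rescaling. It was 15.8% with an untrended prior and 11.6% without moderation. With limits of 0.1 and 5 FPKM it was 12.9% and 18.7%, and with no limit 11.5%. Where not named, the cause was not tested.

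The direction of Cers1, Cers2, Cers4, Cers5, Cers6, Degs1, Asah1, Smpd1 and Sptlc1 was the same in all alternatives in which they were tested. Sptlc2 was between -0.14 and 0.49, and Sox4 between -0.32 and 0.71, with a library left out. Sptssa was 0.028 after quantile normalization, 0.040 after the rescaling and between -0.11 and 0.049 with a library left out. Leaving out Cers1 moved the Cers2 share difference to -8.48 percentage points. The mouse numbers pair nothing in the labels, and the differences between mouse 1 and mouse 2 in the 2 genotypes had a correlation of -0.012 over 12877 genes, so the block is given as an alternative only. Depth limits Cers1 most, at 2 to 7 estimated fragments in 3 libraries.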
